A study of Mus musculus with 28 samples.

Results

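The genes described here are the 159 protein-coding genes whose expression in the mouse first molar climbed from E13 to E14 and again from E14 to E16. They were chosen by measured values among 21819 protein-coding genes. The expression of a gene in a tooth was taken as CPM, the counts per 1000000 counts of the tooth, and the level of a stage as the median over its 7 teeth. A gene was a member when its E14 median was at least 1.5 times its E13 median, its E16 median was at least 1.5 times its E14 median and at least 5 CPM, every E14 tooth was above every E13 tooth, and every E16 tooth was above every E14 tooth, where 1 E16 tooth was not held to this last condition. Of 11564 protein-coding genes with an E16 median of at least 5 CPM, 812 passed the first ratio, 343 of these the second, and 180 the separation of E13 and E14 teeth. The levels of the members at E13, E14, and E16 are therefore a description of what selected them, and tests are given for the E15 teeth and for the side of the jaw, which the selection did not use.

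Each library is a single first molar tooth germ of a C57BL/6JOlaHsd mouse, the strain of all groups, and the labels name no mutation or treatment in any group. There were 7 teeth each of E13, E14, and E16, labelled E13.5, E14.5, and E16.5, and 6 teeth of E15 that the labels describe as wild type lower first molars. Embryo 6 of E14 and embryos 6 and 8 of E16 gave both a left and a right tooth, whereas the E15 teeth are from 6 embryos. A further E15 tooth named in the labels was not analysed here. The E13, E14, and E16 teeth have counts of reads per gene made with HTSeq, with totals of 17814073 to 27115729 per tooth. The E15 teeth are in a second table of estimated counts made with salmon, together with the E13 and E16 teeth, with totals of 14965319 to 24056056, and this table lists 149 of the members. The E15 teeth have collection and processing notes of their own, and their stage and this batch cannot be told apart.

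A molar germ is an epithelial bud, cap, and then bell that folds around condensed neural crest mesenchyme. At the cap stage, a cluster of nondividing epithelial cells called the enamel knot secretes Shh, Wnt, Bmp, and Fgf signals that pattern the tooth, and later the inner enamel epithelium and the stellate reticulum differentiate, while bone and its osteoclasts form around the germ. Epithelia of this kind hold their cells together with desmosomes, which anchor keratin filaments, and with cadherin junctions. The RNA of each library comes from the whole germ, and in such bulk samples more cells of a type and more RNA per cell cannot be told apart.

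Markers of both tissue layers of the germ were present at E13, E14, and E16. Of 12 dental epithelium markers 5 are members, and the summed level of the other 7 was 509 to 685 CPM in the E13 teeth, 808 to 1010 CPM at E14, and 1411 to 1808 CPM in 6 of the 7 E16 teeth. The sum of the 11 dental mesenchyme markers that are not members was 3542 to 3897 CPM at E13, 3085 to 3527 CPM at E14, and 1653 to 2411 CPM in the same 6 E16 teeth. The remaining tooth is the left one from embryo 3 of E16, with sums of 1614 and 1548 CPM. This is the tooth that the selection excused, and it stands apart from the other E16 teeth in many members, where its own value is given. E16 medians are over all 7 teeth.

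Members differed widely in the size of their steps. The ratio of E16 to E13 medians ranged from 2.38 to above 1000, with a median of 5.92, and was at least 10 for 46 members and below 3 for 23. The median ratio was 2.26 at each step. The range was 1.5 to 23.7 for E14 over E13, in the 158 members with such a ratio, and 1.51 to 149 for E16 over E14. The second step was the larger for 83 members and the first for 76. E16 medians ranged from 5.74 to 5144 CPM, with 31 members at 100 CPM or more and 46 below 20 CPM. Of the members, 21 had an E13 median below 1 CPM, and Gldn, which encodes gliomedin, had an E13 median of 0.

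**Figure D1:**
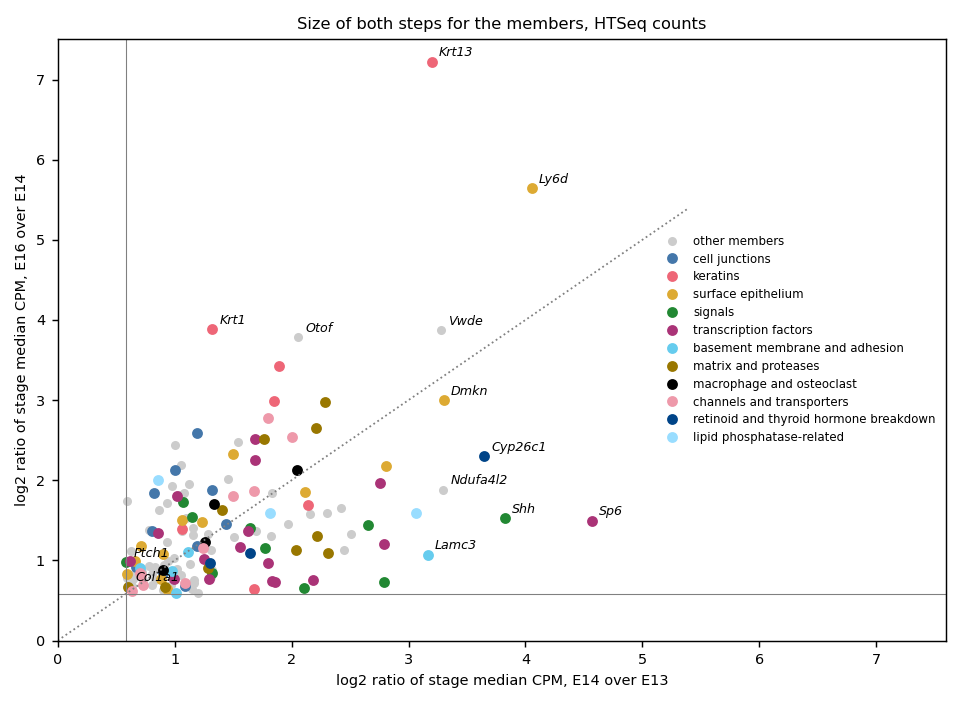
Log2 ratio of stage median CPM at the first step (E14 over E13, horizontal axis) and at the second step (E16 over E14, vertical axis), 1 point per member, colored by role; Gldn, with an E13 median of 0, has no ratio and is not drawn. Grey lines mark the threshold of 1.5 at each step and the dotted line marks equal steps: Krt13 and Ly6d sit highest, with ratios of 149 and 49.9 at the second step, and Sp6 and Shh sit far right, with ratios of 23.7 and 14.2 at the first.

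With the stages fitted in edgeR over all 19101 genes that passed the filter on low counts, which includes every member, 158 of the 159 members passed an adjusted p of 0.05 as higher at E14 than at E13, as did 11.3% of all genes. The same number passed as higher at E16 than at E14, as did 15% of all genes, and 3.71% of all genes passed at both steps. These shares describe the selection and are not a test of it. Counts of list genes that passed, given below, include the members on the list and stand beside the shares of all genes. Without the embryo 3 tooth, 1108 genes in place of 708 passed at both steps. Col1a1 was the member that passed at neither step with all teeth. At the margin of the first ratio, Ptch1, Trim29, and Parp4 were just inside at 1.5, 1.5, and 1.51, and the genes Myo6, Fam83b, and Cd44 just outside at 1.5, 1.5, and 1.49. At the margin of the second, Prrg4, Lad1, and Itpr2 were inside at 1.51, 1.51, and 1.53, and Itga11, Ctsc, and Itgb4 outside at 1.5, 1.49, and 1.48.

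The desmosome and cell adhesion genes form 1 group of 10 members. Dsp, encoding desmoplakin, which ties keratin filaments to the desmosome, had 446, 490, and 612 CPM as its lowest, median, and highest values at E13, 791, 914, and 1017 at E14, and 910, 1638, and 1821 at E16. The lowest E16 value is that of the embryo 3 tooth, and the other 6 E16 teeth were at 1447 CPM or more, above all E14 teeth. The desmosomal cadherin Dsc3 had medians of 77.7, 178, and 404 CPM at E13, E14, and E16, with all 7 E16 teeth between 320 and 463. Its partner cadherin Dsg3 had medians of 10.9, 27.3, and 100 CPM, and the plakophilin Pkp1, a plaque protein of the desmosome, 50.7, 138, and 377 CPM. Perp, a membrane protein of the desmosome, went from 47.4 to 82.9 and 214 CPM. The stages did not overlap in these 4 genes, also with the embryo 3 tooth included.

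The classical cadherins Cdh1 and Cdh3 behaved differently in the embryo 3 tooth. Cdh1, E-cadherin, had 50.5 to 77.3 CPM at E13, 80.3 to 123 at E14, and 183 to 228 in 6 E16 teeth, but 83.1 in the embryo 3 tooth. Cdh3, P-cadherin, had 110 to 159 CPM in 6 E16 teeth and 44.8 in this tooth, within the range of 38.2 to 49.3 CPM at E13. Cldn1, a claudin of tight junctions, was at 68.8 CPM in the embryo 3 tooth, which was also the E16 median. The giant cadherin Fat2 had medians of 26.9, 53.9, and 236 CPM. Of the cell junction genes on a broader list, 14 of 31 tested passed at both steps, and 7 of the list are members.

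The 7 keratin members ran from an epithelium-wide to a differentiation-linked set. Krt5, the basal-layer keratin of stratified epithelia, had a lowest, median, and highest level of 142, 185, and 270 CPM at E13, 361, 387, and 484 at E14, and 620, 1018, and 1175 at E16. Krt17, typical of ectodermal appendages, had medians of 173, 554, and 864 CPM, and most of its increase fell in the first step. Krt13, the keratin of the suprabasal layers of the oral mucosa, had 0.131, 0.389, and 1.89 CPM at E13, 2.18, 3.57, and 6.83 at E14, and 309, 533, and 729 at E16. The stages did not overlap, and nearly all of the increase in CPM came after E14.

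Krt1, a keratin of suprabasal epidermis, likewise took nearly all of its increase after E14, from a median of 5.87 CPM at E14 to 86.5 at E16, with 2.35 at E13. Krt6a, which shares sequence with close paralogs, so that its counts are uncertain, had medians of 6.55, 23.6, and 187 CPM. Krt80 and Krt23 were lower, with E16 medians of 26.5 and 8.56 CPM. Among 15 keratin genes tested from the fixed list, 5 of them members, 12 passed as higher at E14 than at E13, against 11.3% of all genes. At the second step 10 passed as higher, against 15%, and 8 passed at both steps, against 3.71%. None was lower at either step, and the members among them were chosen on these steps.

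Beside them stood 13 members typical of surface epithelium. Ly6d, a membrane protein of differentiating keratinocytes, had at most 0.210 CPM in any E13 tooth, 0.449 to 1.42 at E14, and 23.2, 40.3, and 97.3 CPM as its lowest, median, and highest values at E16. Krtdap, the keratinocyte differentiation-associated protein, and Dmkn, dermokine, had E13 medians of 0.671 and 0.249 CPM and E16 medians of 21.2 and 19.6 CPM. The highest E16 value of Ly6d, Krtdap, and Dmkn was in each case that of the embryo 3 tooth. Lgals7, a galectin of stratified epithelium, had E13 and E16 medians of 4.11 and 64.2 CPM, and Serpinb5, the serpin maspin, 10.4 and 61.4. Sfn, the 14-3-3 protein sigma of epithelial cells, had 28.5, 53.3, and 112 CPM.

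Of 17 markers of cornified epithelium, 5 are members. The sum of the other 12 was 11 to 13.9 CPM at E13, 13 to 23.2 at E14, 129 to 333 in 6 E16 teeth, and 284 in the embryo 3 tooth. Of 14 genes of the list that were tested, members included, 7 passed at both steps and 13 at the second. Krt76 was listed at 0 in the median of all 3 stages, as were the cornified envelope genes Ivl and Sprr1b. The part of cells with these markers in the values of the keratin and surface epithelium members was not tested.

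**Figure D2:**
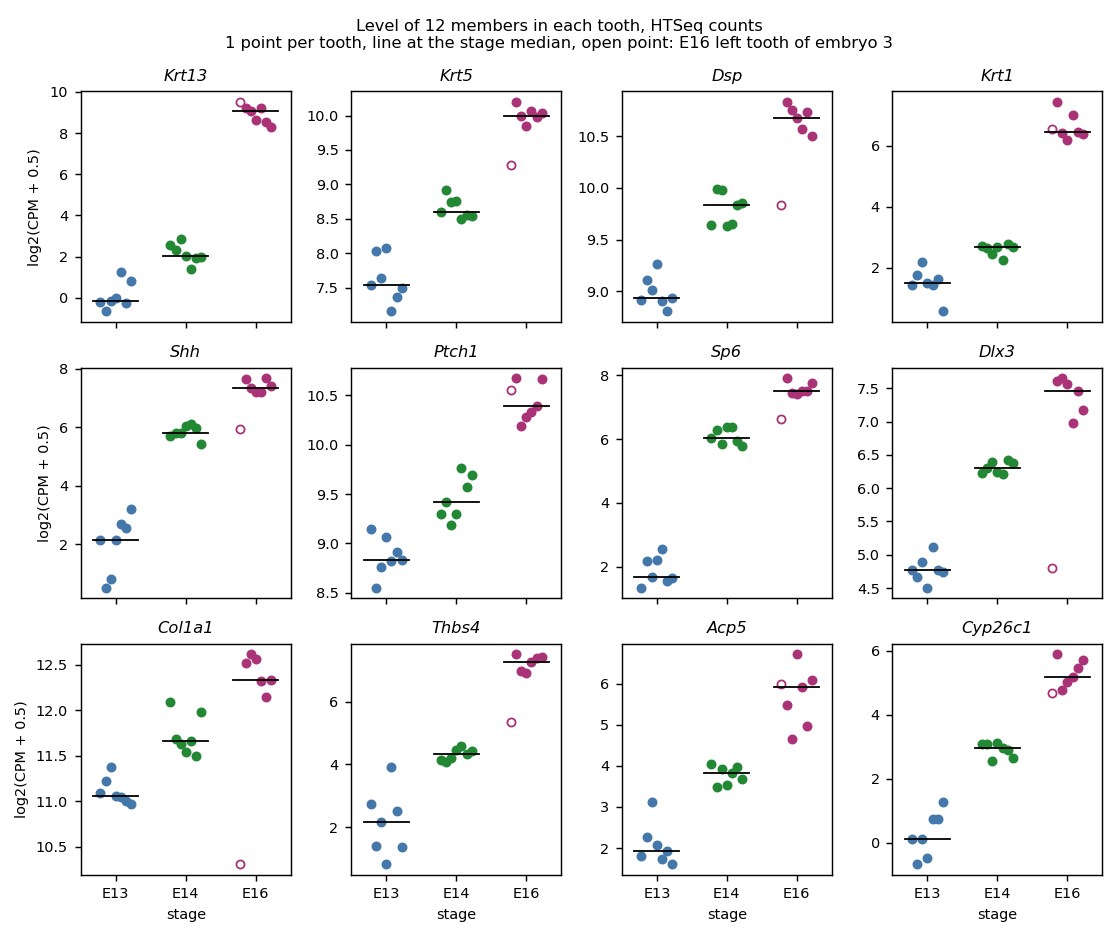
Level of 12 members in every tooth of E13, E14, and E16 on the log2(CPM + 0.5) scale, 1 point per tooth and a line at the stage median of the 7 teeth. Filled E16 points lie above all E14 points, while the open point of the embryo 3 tooth drops to E14 or E13 levels or below in Dlx3, Col1a1, Shh, and Dsp and sits among or above the other E16 teeth in Krt13, Krt1, Ptch1, and Acp5.

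Among secreted signals and their receptors, the Hedgehog pathway was represented by its ligand and a receptor. Shh, the ligand, had 0.920, 3.94, and 8.81 CPM at E13, 42.3, 55.8, and 68.5 at E14, and 60.8, 161, and 205 at E16. Its ratio at the first step, 14.2, was far above that at the second, 2.88, and the lowest E16 value was again that of the embryo 3 tooth, with the others at 146 or more. Ptch1, the receptor and a target of the pathway, had medians of 455, 683, and 1343 CPM. In contrast to Shh, the receptor was not low in the embryo 3 tooth, at 1501 CPM.

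Wnt signaling contributed the ligand Wnt10a, with medians of 3.79, 16.3, and 25.7 CPM, and 3 secreted inhibitors. The inhibitor Wif1 had 16.7, 20.6, and 26.3 CPM at E13, 43.6, 45.5, and 51.5 at E14, and 70.2, 133, and 153 at E16, with no overlap between stages. Notum, which removes the lipid of Wnt proteins, had medians of 1.46, 10.1, and 16.8 CPM, and Sfrp5, a soluble Frizzled-like receptor, 0.378, 2.38, and 6.45 CPM. Sfrp5 had the lowest value of all members in the embryo 3 tooth relative to the E16 median, a ratio of 0.0958. Of 18 tested secreted Wnt inhibitors, these 3 were the ones that passed at both steps.

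Bmp3, an atypical member of the Bmp family, had medians of 16.2, 33.9, and 113 CPM. The insulin-like growth factor axis was represented by Pappa2, a protease that cleaves binding proteins of the growth factors, with 28.5, 45.8, and 92.6 CPM at E13, 132, 156, and 175 at E14, and 154, 348, and 410 at E16, and by the binding protein Igfbp7, with medians of 7.05, 22.1, and 58.3 CPM. On the list of enamel knot and tooth signals, 7 of 22 genes passed at both steps, and Shh, Wnt10a, and Bmp3 are members.

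Transcription factors formed the largest named group, with 17 members. Sp6, the zinc finger protein epiprofin that is needed for the number and enamel of teeth, had 2.03, 2.72, and 5.41 CPM at E13, 54.7, 64.4, and 83.1 at E14, and 99.7, 182, and 240 at E16. Its ratio of 23.7 was the highest at the first step among the members other than Gldn, which has no ratio. The linked homeobox genes Dlx3 and Dlx4 had medians of 26.7, 78.6, and 176 CPM and 0.834, 5.62, and 21.9 CPM. Dlx3 had 125 to 200 CPM in 6 E16 teeth and 27.4 in the embryo 3 tooth, inside its E13 range of 22.2 to 34.2.

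Msx2, a homeobox gene of tooth epithelium and mesenchyme, had medians of 4.66, 15, and 71.3 CPM, and Foxi3, a forkhead gene of ectodermal placodes, 9.43, 29.2, and 75.1 CPM. Tbx1, which maintains dental epithelial growth, had 20.9, 51.1, and 87.1 CPM. Zfp750 and Casz1, a regulator of keratinocyte differentiation and a castor-type zinc finger gene, had E16 medians of 140 and 114 CPM, and Zbtb20 had 78.3, 142, and 360 CPM. The nuclear proteins Hr, known from the hair cycle, and Vdr, the vitamin D receptor, had medians of 9.90, 35.9, and 59.7 CPM and 1.62, 5.64, and 11.0 CPM. Of the 17 factors, 15 had their lowest E16 value in the embryo 3 tooth, and Zbtb20 had its highest E16 value there. On the list of tooth transcription factors, 9 of 40 tested genes passed at both steps and 3 passed as lower at both, and 6 are members.

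Genes needed for tooth development were sorted by the phenotype of the mutant mouse, and members are 1.37% of the protein-coding genes of at least 5 CPM at E16. Of genes required for the germ to progress, Shh was the member among 15. Foxi3, Msx2, Sp6, and Wnt10a were members among 28 genes of tooth shape, Lama3 and Perp among 27 genes of tooth tissue, and Dlx3 and Dlx4 among 11 genes needed only in double mutants. Of 100 genes active in the tooth but dispensable for it, Bmp3, Cdh3, Col1a1, Cyp26c1, and Ndrg1 were among the members.

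Extracellular matrix members included genes of both layers. Col1a1, the chain of type I collagen made by mesenchyme and osteoblasts, had 2002, 2133, and 2665 CPM at E13, 2881, 3232, and 4353 at E14, and 1268, 5144, and 6269 at E16. The embryo 3 tooth was below every E13 tooth, whereas the other 6 E16 teeth were at 4527 CPM or more. Thbs4, a thrombospondin of tendon and connective tissue, had medians of 3.98, 19.4, and 153 CPM, and again a low embryo 3 tooth, at 40.6 CPM. Ltbp2, a protein of elastic microfibrils, had 1.58, 7.27, and 45.6 CPM, and the matrilin Matn4 1.75, 5.94, and 33.9 CPM. Has3, which makes hyaluronan, had 10, 46.5, and 114 CPM. The secreted serine proteases Htra1 and Htra3 had E16 medians of 30.5 and 19.7 CPM, with 15.4 and 5.22 CPM in the embryo 3 tooth. Of 34 tested matricellular and elastic fibre genes, 4 passed at both steps and 8 passed as lower at E16 than at E14. The genes past both steps were 3 of 26 matrix proteases and inhibitors, 2 of 20 fibrillar and associated collagens, and 0 of 11 osteoblast markers, beside 3.71% of all genes.

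Basement membrane members included the laminin chains Lama3 and Lamc3, the collagen chain Col4a6, and Lad1. Lama3 had medians of 29.2, 57.4, and 104 CPM, Lamc3 4.56, 40.9, and 85.8 CPM, and Col4a6 11.4, 18.6, and 34.7 CPM. Lamc3 had its larger ratio at the first step, 8.96 against 2.10 at the second.

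Genes of osteoclasts and macrophages were also selected. Acp5, the tartrate-resistant acid phosphatase of osteoclasts, had 2.55, 3.31, and 8.21 CPM at E13, 10.7, 13.7, and 16 at E14, and 24.7, 59.9, and 104 at E16. Ctsk, the protease cathepsin K with which osteoclasts degrade bone collagen, had medians of 10.9, 27.4, and 89.5 CPM. The E16 teeth spread widely in both genes, from 34.8 to 155 CPM for Ctsk. All 10 osteoclast markers on the fixed list passed as higher at E16 than at E14 and 5 at both steps, and the sum of the 8 that are not members was 29.1 to 65.4 CPM at E13, 78.8 to 107 at E14, 111 to 333 in 6 E16 teeth, and 112 in the embryo 3 tooth. Csf1r, the receptor that macrophages need, had medians of 11.4, 21.3, and 39.2 CPM, and F13a1, a coagulation factor of tissue macrophages, 5.89, 14.1, and 33.0 CPM. Of 13 macrophage markers tested, Csf1r and F13a1 included, 6 passed at both steps. The part of the number of such cells in the values of these 4 members was not tested.

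Some members stood in small functional sets. Cyp26a1 and Cyp26c1, neighboring enzymes that degrade retinoic acid, had medians of 2.97, 9.27, and 19.7 CPM and 0.583, 7.30, and 36.0 CPM. Dio3, which inactivates thyroid hormone, had 4.52, 11.2, and 21.8 CPM, with 3.48 in the embryo 3 tooth. The subunits Kcnj8 and Abcc9 of a potassium channel of pericytes had medians of 3.40, 9.61, and 33.6 CPM and 10.3, 24.5, and 54.5 CPM. Of 10 smooth muscle and pericyte markers these 2 are members, and 3 of 9 tested passed at both steps. The sum of the other 8 was 403 to 476 CPM at E13 and 480 to 528 at E14. At E16 this sum was 489 to 577 CPM in 6 teeth and 416 in the embryo 3 tooth. The epithelial sodium channel subunits Scnn1b and Scnn1g had E16 medians of 8.33 and 11.8 CPM, against 0.350 and 1.01 at E13. The 3 phospholipid phosphatase-related genes Plppr1, Plppr4, and Plppr5 had E16 medians of 41.6, 18.2, and 11.0 CPM, against 5.73, 0.722, and 1.04 at E13.

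Members without a role in these groups numbered 67. The steepest of them were Vwde, a protein with von Willebrand factor and EGF domains, with medians of 0.451, 4.37, and 64.0 CPM, Otof, otoferlin, with 0.797, 3.31, and 45.6 CPM, and Ndufa4l2, a mitochondrial protein induced in low oxygen, with 1.46, 14.4, and 52.9 CPM. The stages did not overlap in Vwde and Otof, and in Ndufa4l2 the embryo 3 tooth, at 18.3 CPM, was below the highest E14 tooth, at 19.4. The remaining members of this kind ranged in their ratio of E16 to E13 medians from 2.41 upward, with a median of 4.47 over the 67.

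The spread between teeth of a stage was compared with that of other protein-coding genes of at least 5 CPM at E16. The median coefficient of variation of the members was 21.7% at E13 and 15.9% at E14, and that of the other genes was 9.12% and 10.9%. At E16 it was 21.1% for the members and 18.5% for the others, or 14.1% and 11.7% without the embryo 3 tooth. The median level of the members was 6.03 CPM at E13 and 37.3 CPM at E16, and the part of the level in these differences was not tested.

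The excused tooth separated the members into those it held and those it lost. Relative to the E16 median, its levels ranged from 0.0958 to 2.47, for Sfrp5 and S100a14, with a median of 0.791. It was below the other 6 E16 teeth for 82 members and above all of them for 43. Among E16 teeth, the selection let only this one fall to E14 levels, and the same counts over all genes were not made. The tooth also added to the spread of other genes, whose median coefficient of variation at E16 was 18.5% with it and 11.7% without it. It was above every E14 tooth in 117 members, so that these would have been chosen also with all 7 E16 teeth, and it was not above every E13 tooth in Cdh3, Col1a1, Dio3, Dlx3, and Trp53i11.

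By role, these ratios are a description, because the roles were formed after the values were seen and no difference between roles was tested. The median ratio was 0.497 for the 10 signals and receptors, 0.512 for the 10 matrix and protease members, and 0.579 for the 17 transcription factors. It was 0.876 for the 10 cell junction members, 1.08 for the 7 keratins, 1.16 for the 4 macrophage and osteoclast members, and 1.54 for the 13 surface epithelium members. Of the 13 surface epithelium members, 8 had their highest E16 value in this tooth, and of the 10 signals 8 had their lowest. This tooth also had the lowest summed level of endothelium markers, at 322 CPM against 575 to 779 CPM in the other E16 teeth. Without members, its sums were also the lowest for osteoblast markers (2120 against 3995 to 4450 CPM), cartilage markers (146 against 215 to 294 CPM), and further lists. Its sum of keratins that are not members was the highest, at 1124 against 853 to 1059 CPM. Some other lists were within the range, among them cornified epithelium, at 284 against 129 to 333 CPM. The part of its cell makeup in the ratios of the roles was not tested.

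**Figure D3:**
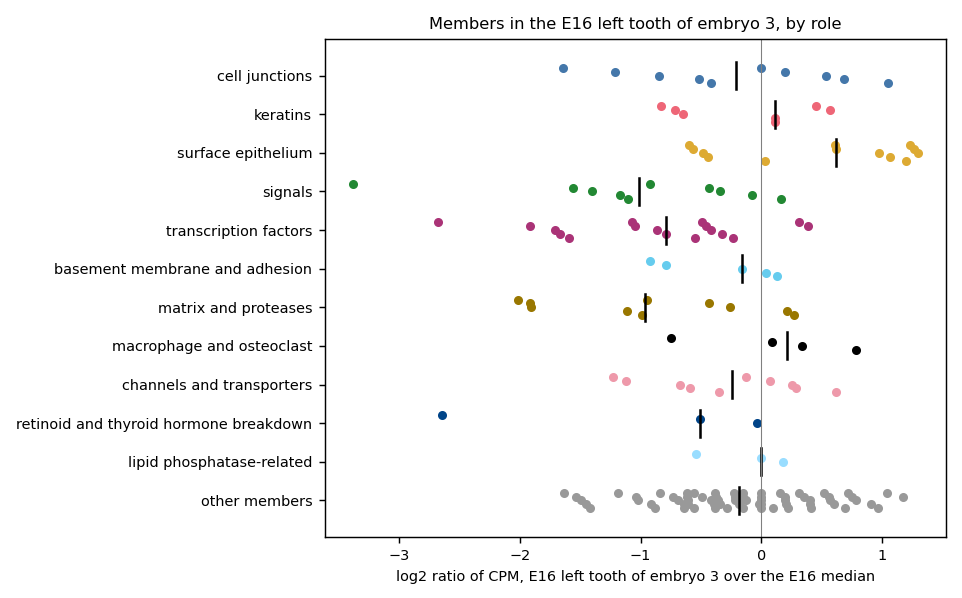
Log2 ratio of CPM in the E16 left tooth of embryo 3 to the median of the 7 E16 teeth, 1 point per member in rows by role, with a black line at the median of each role. Signals, transcription factors, and matrix members lie mostly left of 0, with median ratios of 0.497, 0.579, and 0.512, and surface epithelium members mostly right, with a median ratio of 1.54.

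The E15 teeth, which had no part in the selection, were compared with E13 and E16 in the salmon table. All E16 and 6 of the 7 E13 teeth of this table carry the names of teeth used to choose the members, and the other E13 tooth was used if it is the left tooth without an embryo number, so that only the E15 side of each comparison is independent of the choice. In edgeR, 148 of 149 members (99.3%) were higher at E15 than at E13, as were 18.3% of the 13447 genes tested, and the median log2 fold change was 1.85 over the members and 0.04 over all genes. Every E15 tooth was above every E13 tooth in 139 members (93.3%), as in 7.24% of genes. The share of changed genes that were higher at E15 was 68.3% of all calls and 58.2% with the DESeq2 normalization and test.

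From E15 to E16, 74 members (49.7%) rose in edgeR, as did 3.64% of all genes, and no member fell. Without the embryo 3 tooth, 805 of all genes in place of 489, and 91 members, were higher at E16 than at E15. With the teeth of an embryo summed, 368 of all genes and 59 members were. Every E16 tooth except that of embryo 3 was above every E15 tooth in 66 members (44.3%), as in 3.44% of genes, and all 7 E16 teeth were in 37. Of 523 genes that did not meet the selection but had a ratio of E16 to E13 medians of at least the square of 1.5, 478 (91.4%) were higher at E15 than at E13 and 170 (32.5%) were higher at E16 than at E15. The difference of these shares from those of the members was not tested.

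The E15 median lay between the E13 and E16 medians in 143 of 149 members, and at or above the E16 median in Col4a6, Cpa6, Fgfbp1, Lama3, Ndrg2, and Plek2. On the log2 scale from the E13 to the E16 median, with 0.5 CPM added, the median member had covered 74.0% of the way by E15, with quartiles of 64.9% and 83.5%. At E14, the median member had covered 48.3% of the same way in the HTSeq table. The selection required a rise at each step, so this E14 position and its difference from that of other genes describe the selection. Of the other increasing genes, the 523 listed in the salmon table, the median gene had covered 69.6% by E15 and 36.6% by E14 in the HTSeq counts.

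**Figure D4:**
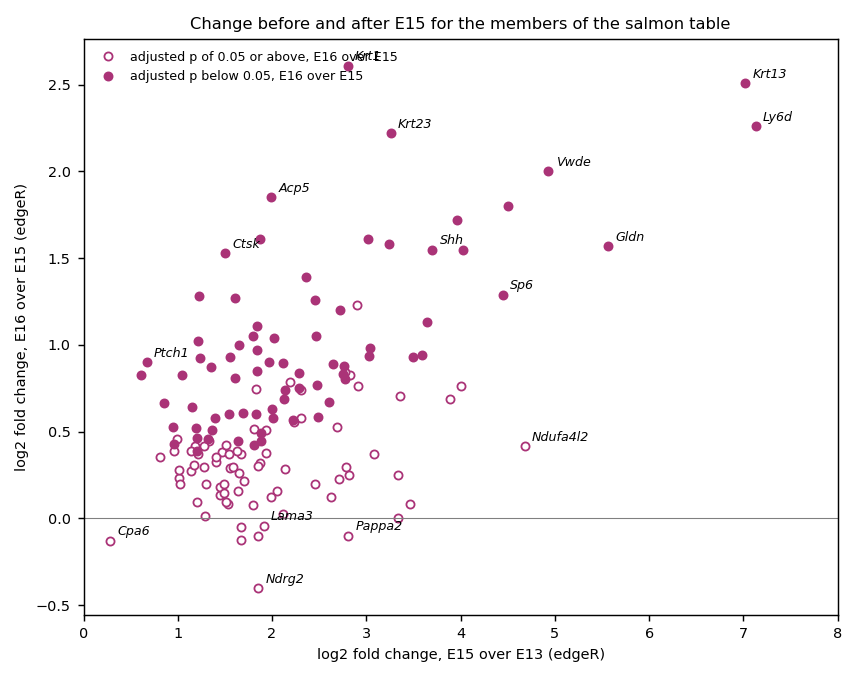
Log2 fold change from E13 to E15 (horizontal axis) and from E15 to E16 (vertical axis) for the 149 members of the salmon table, fitted in edgeR, with filled points for the 74 members with an adjusted p below 0.05 from E15 to E16. All members except Cpa6 passed from E13 to E15, Krt13 and Ly6d are farthest to the right, Krt1 is highest, at 2.61, and Ndrg2 is lowest after E15, at -0.40.

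Several of the members with the largest ratios were above E13 at E15 and rose again to E16. Krt13 had 0.170, 0.479, and 2.24 CPM at E13, 45.5, 92.4, and 165 at E15, and 366, 583, and 843 at E16 in the salmon table. The 3 groups did not overlap, with a log2 fold change of 7.02 ± 0.42 (SE, adjusted p = 2.28e-11) from E13 to E15 and 2.51 ± 0.32 (adjusted p = 2.54e-05) from E15 to E16 in edgeR. Krt1 rose by 2.80 ± 0.24 (adjusted p = 6.12e-09) and then by 2.61 ± 0.23 (adjusted p = 1.4e-07), the largest increase of any member after E15. Ly6d rose by 7.13 ± 0.49 and 2.26 ± 0.30, and Vwde by 4.93 ± 0.37 and 2.0 ± 0.29 (adjusted p = 2.02e-10 and 3.14e-05, and 7.05e-10 and 7.71e-05).

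The genes Shh and Ptch1 also rose in both intervals. Shh had 51.3, 58.4, and 78.3 CPM at E15 and a median of 201 at E16, with log2 fold changes of 3.70 ± 0.35 (adjusted p = 2.64e-08) and 1.55 ± 0.32 (adjusted p = 0.00296). Ptch1 had 446, 531, and 633 CPM at E13, 550, 800, and 1105 at E15, and 1209, 1539, and 1817 at E16. E15 overlapped E13 in Ptch1 but not E16, and the fold changes were 0.67 ± 0.13 (adjusted p = 0.000388) and 0.90 ± 0.13 (adjusted p = 8.73e-05).

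Sp6 rose by 4.45 ± 0.25 (adjusted p = 1.52e-11) to E15 and by 1.29 ± 0.22 (adjusted p = 0.000491) to E16, and Msx2 by 2.36 ± 0.25 and 1.39 ± 0.24 (adjusted p = 1.25e-07 and 0.000422). Dlx3 also rose in both intervals, with adjusted p values of 8.78e-05 and 0.0309, whereas Foxi3 rose by 2.31 ± 0.25 (adjusted p = 1.85e-07) to E15 and differed by 0.58 ± 0.24 (adjusted p = 0.179) after it. Ctsk and Acp5 rose by 1.5 ± 0.27 and 1.99 ± 0.30 to E15, and by 1.53 ± 0.27 and 1.85 ± 0.29 after it. For these osteoclast genes the adjusted p was 0.000187 and 2.01e-05 in the first interval, and 0.000725 and 0.000198 in the second.

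**Figure D5:**
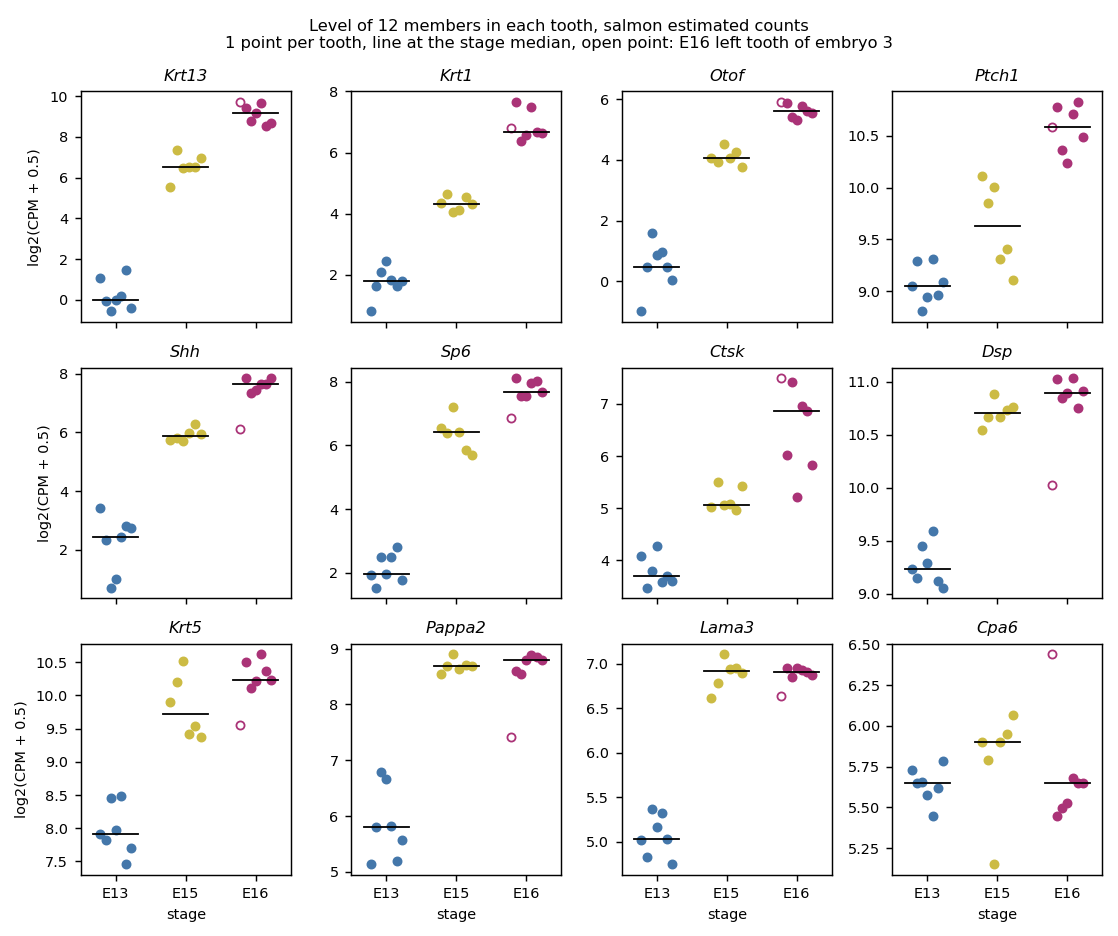
Level of 12 members in every tooth of E13, E15, and E16 in the salmon table on the log2(CPM + 0.5) scale, with a line at the stage median and an open point for the E16 left tooth of embryo 3. In Krt13, Krt1, Otof, and Ptch1 all E16 teeth lie above all E15 teeth, in Dsp, Krt5, Pappa2, and Lama3 the E15 and E16 teeth overlap, and in Cpa6 the 3 stages overlap.

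Other members had most or all of their increase by E15. Dsp had 1496, 1669, and 1887 CPM at E15 and 1041, 1905, and 2098 at E16, a rise of 1.53 ± 0.14 (adjusted p = 1.22e-08) to E15 and a difference of 0.08 ± 0.14 (adjusted p = 0.849) after it. Krt5 rose by 1.94 ± 0.19 (adjusted p = 4.26e-08) and then differed by 0.38 ± 0.19 (adjusted p = 0.300). Pappa2, at a median of 55.5 CPM at E13, had 412 at E15 and 441 at E16, with a log2 fold change of 2.81 ± 0.26 (adjusted p = 1.48e-08) to E15. Lama3 had E15 and E16 medians of 120 and 119 CPM, and Ndrg2, a gene of the differentiation-linked Ndrg family, had a higher E15 than E16 median, 50.9 against 40.2 CPM, with an adjusted p of 0.0694. These intervals do not show that E15 and E16 were equal in such members.

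Grouped by role, the members called in the second interval were 7 of 10 signals, 7 of 10 matrix members, 6 of 10 surface epithelium members, 6 of 10 channels and transporters, 6 of 9 cell junction members, 4 of 6 keratins, 9 of 16 transcription factors, 2 of 4 macrophage and osteoclast members, 2 of 2 retinoic acid-degrading enzymes, 1 of 3 phosphatase-related members, 1 of 5 members of basement membrane and adhesion, and 23 of 64 other members. These counts stand beside the 49.7% of all members and 3.64% of all genes, and the roles were formed after the values were seen, so that no difference between roles was tested. All 85 members with a role that are in the salmon table were called from E13 to E15.

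Cpa6, a carboxypeptidase, was the exception in the first interval. Its E13, E15, and E16 medians in the salmon table were 49.7, 59.2, and 49.7 CPM, with overlap among all stages, and its log2 fold change from E13 to E15 was 0.28 ± 0.16 (adjusted p = 0.185). In the HTSeq table, where it was selected, it had 1.93, 4.22, and 8.21 CPM. The tables thus assigned this gene different read numbers in the same E13 and E16 teeth, and it overlaps another gene on the opposite strand. Of the members, 59 overlap a gene on the other strand, among them Krt5, Zbtb20, Shh, and Sp6, and 21 overlap one on the same strand, and whether the counting used the strand is not given in the sources used here.

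The side of the jaw did not separate the members. With stage in the same edgeR fit over E13, E14, and E16, right and left teeth differed in 0 of 159 members and in 0 of all genes (0%), while 1 member and 306 of all genes had an unadjusted p below 0.05. The log2 differences of right from left ranged from -0.48 to 0.37 over the members. DESeq2 called 12 of all genes and none of the members.

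Some members were neighbors on the chromosomes. Of the 159, 30 (18.9%) had another member within 100 kb, in 14 groups, compared with 2.99% of 11405 other protein-coding genes of at least 5 CPM at E16 that had a member within this distance. Neighboring genes of a family share their origin, and the shares are a description. On the GRCm38 genome the pairs included Krt6a and Krt5 (chr15:101689910-101712898), Dlx3 and Dlx4 (chr11:95120119-95146263), Cyp26c1 and Cyp26a1 (chr19:37685581-37701536), Cdh3 and Cdh1 (chr8:106510891-106670246), Scnn1g and Scnn1b (chr7:121734479-121918514), Kcnj8 and Abcc9 (chr6:142564837-142702315), and Dmkn and Krtdap (chr7:30763756-30791097).

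Within a pair, the steps were not always of like size. Cyp26c1 had a ratio of E16 to E13 medians of 61.7 and Cyp26a1 of 6.63, Dlx4 26.2 and Dlx3 6.6, and Krt6a 28.6 and Krt5 5.51. Other pairs joined unlike genes, such as the plakophilin Pkp1 with the basement membrane protein Lad1, or Sfrp5 with Golga7b. The remaining groups were Rhbdf2 with Cygb and both identifiers named St6galnac2, Ccdc3 with Camk1d, Prnp with Rassf2, S100a1 with S100a14, and Fam19a4 with Eogt.

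Promoter sequences, 250 bases before to 50 bases after the start in RefSeq on GRCm38.p6, were found for 105 member genes with 135 starts. The TATA box sequence TATAAA stood 40 to 20 bases before the start in 1.48% of these promoters and in 2.43% of 20118 promoters of protein-coding genes. These 20118 promoters were taken at any level of expression, whereas members have at least 5 CPM at E16. Promoters of expressed genes alone were not compared. The sequence TGANTCA, searched on both strands, which includes the sites known for AP-1 proteins, was in 12.6% and 7.0%. The GC box GGGCGG, on both strands, was in 63.0% and 47.7%. The median number of CG dinucleotides was 16 in members and 14 in all promoters. A match of letters is not evidence of binding, and none of these shares was tested.

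Krtdap, one of 2 members with TATAAA in this window, carried both sequences within a short distance of its start, and Dmkn, its neighbor and fellow keratinocyte gene, had TGANTCA at a similar distance. They are shown with Krt13 as steep genes of the surface epithelium and keratin groups, chosen after their values were seen. The TATAAA of Krtdap is in capitals, 5′ to 3′, at chr7:30787845-30787904 on the plus strand.
Krtdap, TATA box: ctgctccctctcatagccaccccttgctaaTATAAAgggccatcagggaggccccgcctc
The TGANTCA matches are in capitals with 20 bases at each side, at chr7:30787804-30787850 and chr7:30763647-30763693 on the plus strand and chr11:100121736-100121782 on the minus strand.
Krtdap, TGANTCA: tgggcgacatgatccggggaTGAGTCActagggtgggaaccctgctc
Dmkn, TGANTCA: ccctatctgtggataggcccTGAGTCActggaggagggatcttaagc
Krt13, TGANTCA: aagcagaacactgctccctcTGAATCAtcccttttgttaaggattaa
The match lies 81 bases before the start in Krtdap, 89 in Dmkn, and 196 in Krt13, and the first 2 genes share the letters TGAGTCA.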

How the data were processed

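RNAseq libraries of single mouse first molar tooth germs were analyzed, and stage, embryo, and side were taken from the sample labels. The authors filtered the reads, aligned them with STAR to GRCm38 (Ensembl release 90), and counted reads per gene with HTSeq, and deposited these counts of 52636 genes in whole numbers, not normalized. The second deposited table holds estimated counts made by the authors with salmon (Salmon 0.99.0 and Trimmomatic 0.39 in the submitters' processing notes for the E15 teeth), in whole numbers, for 14185 genes, and its choice of genes is not given in the sources used here. Of the genes counted, 233 were absent from the GENCODE annotation of GRCm38, from which biotypes and coordinates were taken.

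CPM are the counts divided by the column sum. Tests used the quasi-likelihood test of edgeR 4.0.16 in R 4.3.3 with TMM normalization and filterByExpr, fitted over all genes of a table with stage as a factor, and Benjamini-Hochberg adjustment at 0.05, where errors are SE. Left and right were tested in the fit of the 21 HTSeq libraries with stage, and E15 in the fit of the 20 salmon libraries. Replicates are single teeth, and p values measure the spread between them. Each fit was tested on simulated data. DESeq2 1.42.0, other normalizations, filters, and folds, summed teeth of an embryo, and each tooth left out were alternatives. Figures were made with matplotlib 3.10.9.

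The members, the 35 gene lists, the lists of mutant phenotypes, and the tests were chosen with earlier results of these data known. Named are the 10 members with the highest E16 median, the 10 with the largest ratio of E16 to E13 among those with an E13 median of at least 0.5 CPM, those with an E13 median of 0, members on a list, members next to a threshold or to each other within 100 kb, members that fell around E15, and the 5 lowest in the embryo 3 tooth. Further members and the 11 roles were added after their values were seen. Some genes that this rule names are not reported here.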

Additional observations from a re-analysis of the deposited data

Results flagged for a closer look

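In 86 groups of teeth tested for a tooth far from the others, 9 had one. Chance flags about 1 in 20 groups that were not chosen on their values. The flagged genes are members, chosen on these values, so this rate does not apply to them. The E16 left tooth of embryo 3 was the far tooth in 6 of them, each time as the lowest. The selection held the other E16 teeth of a member above all E14 teeth but not this tooth, so its flags are a description. It had 1268 CPM of Col1a1 against 4527 to 6269 in the other E16 teeth, 910 CPM of Dsp against 1447 to 1821, 154 CPM of Pappa2 against 337 to 410, 60.8 CPM of Shh against 146 to 205, and 40.6 CPM of Thbs4 against 120 to 181. Its summed level of all 159 members was 13572 CPM, against 18533 to 22269 CPM in the other 6 teeth. At E13, the left tooth of embryo 7 was the highest for Thbs4, at 14.7 CPM against 1.26 to 6.22, and the left tooth of embryo 2 the highest for Krtdap, at 1.23 CPM against 0.344 to 0.680. At E14, the right tooth of embryo 5 was the lowest for Krtdap, at 2.42 CPM against 4.28 to 5.26.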

How the results depend on the processing

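The number of members was 159 with the chosen thresholds, 245 with a ratio midway between 1 and 1.5 at each step, and 80 with a ratio of 2. It was 117 to 181 under the other alternatives and 159 to 177 with 1 tooth left out. Members higher at E15 than at E13 numbered 148 or 149 under every alternative run, and members higher at E16 than at E15 numbered 59 to 91, where 91 was the value without E16 replicate 1, the left tooth of embryo 3. All genes higher at E16 than at E15 numbered 489 in edgeR, 737 in DESeq2, and 393 to 805 with 1 tooth left out, and the highest value was that without E16 replicate 1. They numbered 368 with the teeth of an embryo summed and 366 in a fit of the 2 stages alone. Genes that passed at both steps from E13 to E16 numbered 1108 without this tooth. DESeq2 called 12 genes between left and right teeth, where edgeR called 0. The log2 difference of E16 from E15 changed sign, never with an adjusted p below 0.05, in Pappa2 (-0.144 to 0.0332 with 1 tooth left out), Lama3 (-0.10 to 0.00175), and Htra1 (-0.0768 to 0.139, and -0.0121 with the teeth of an embryo summed). Of the 56 members followed under the alternatives, 5 lost the call from E15 to E16 and 7 gained it under at least 1 alternative. The cause of these changes was not tested. No paired analysis of the stages was possible because an embryo has teeth of 1 stage only and the labels give no replicate numbers. The left and right teeth of 3 embryos were not fitted as pairs. Members near 5 CPM had the fewest reads behind each value.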

Other observations

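Beyond the members, the gene lists differed in direction. Of 22 mitotic cell cycle genes, of which no gene is a member, 20 passed in edgeR as lower at E16 than at E14. Of 12 dental epithelium genes, 11 passed at both steps, although 5 are members. Krt14, Krt15, Trp63, Epcam, and Grhl2 were among those that passed at both steps without reaching the ratios or the separation of teeth. Of 12 dental mesenchyme genes, Msx2 passed at both steps, and 6 passed as lower at E16 than at E14. Small leucine-rich proteoglycans had 6 of 12 genes past both steps and no member. Over all lists, 119 of 643 genes tested passed at both steps, as did 3.71% of all genes. Of the list genes, 53 are members, which were chosen on these steps, and of these Col1a1 did not pass. The lists were chosen with earlier results known, so these counts are a description.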
